A study of Mus musculus with 6 samples.

Results

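Gas6, its paralogue Pros1 and the 3 TAM receptors Tyro3, Axl and Mertk were examined in embryonic mouse lung buds that lacked, or kept, the histone deacetylase genes Hdac1 and Hdac2 in the epithelium. The 5 genes were taken by name out of 19938 measured genes, because Gas6 was already known to differ between the 2 genotypes in these arrays and the other 4 are its nearest relative and its receptors. The difference between the genotypes therefore helped to choose them and is described below without a p-value. Each of the 5 genes had 1 probe set that the platform annotation gives to a single gene, and no probe set shared with another gene.

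Lung buds were taken at E11.5, a stage of mid-gestation when they begin to branch, and gene expression was measured in 6 samples on Affymetrix MoGene 1.1 ST arrays, starting from 100 ng of total RNA each. The 3 DKO samples carried Shhcre with homozygous floxed alleles of both genes (Shhcre:Hdac1fl/fl; Hdac2 fl/fl), and the 3 control samples carried Shhcre alone. Both groups thus carried the Shhcre allele, in a background of C57BL/6, 129X1 and 129S1. Shhcre expresses Cre recombinase where Sonic hedgehog is active, which in the lung bud is the epithelium, so mesenchyme, vessels, mesothelium and blood cells are not targeted and are measured in the same RNA. The arrays are labelled as biological replicates, but how many embryos went into each is not stated, and p-values here therefore speak only for the scatter among the samples.

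Gas6 is a secreted protein that carries a Gla domain, a stretch of glutamate residues carboxylated with the help of vitamin K, through which it binds phosphatidylserine on dying cells and membranes. Its other end binds and activates the receptor tyrosine kinases Tyro3, Axl and Mertk, whose initials give the family its name. Protein S, encoded by Pros1, has the same layout, activates Tyro3 and Mertk, and also serves as a cofactor of the anticoagulant protein C. TAM signalling is known for the clearance of apoptotic cells by macrophages and epithelia, for damping inflammatory responses, and for the survival of vascular and mesenchymal cells.

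The upstream sequences of the 2 ligand genes are shown because Gas6 differed far more between the genotypes than its paralogue. They are the 250 bases before each RefSeq gene start (GRCm38.p6) of these 2 genes, printed 5′ to 3′ on the strand of the gene, and capitals mark the GC box, GGGCGG or its reverse complement CCGCCC, overlapping matches counted separately. The Gas6 window lies at chr8:13494536-13494785 on the minus strand and the Pros1 window at chr16:62854057-62854306 on the plus strand.
Gas6: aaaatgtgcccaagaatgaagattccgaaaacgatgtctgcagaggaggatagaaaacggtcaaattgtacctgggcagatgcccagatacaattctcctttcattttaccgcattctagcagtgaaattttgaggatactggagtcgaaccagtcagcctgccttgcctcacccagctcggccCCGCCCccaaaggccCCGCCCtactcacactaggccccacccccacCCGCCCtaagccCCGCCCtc
Pros1: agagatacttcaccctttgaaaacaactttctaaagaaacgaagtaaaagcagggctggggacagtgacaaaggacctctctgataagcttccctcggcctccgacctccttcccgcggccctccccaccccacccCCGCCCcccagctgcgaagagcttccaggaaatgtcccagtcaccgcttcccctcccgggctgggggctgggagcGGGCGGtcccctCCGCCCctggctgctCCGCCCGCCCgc
The Gas6 window held 4 GC boxes, all as CCGCCC, and the Pros1 window held 5. The Mertk window held 3. The windows listed for Tyro3 and Axl lie inside or across the annotated gene rather than before it and were not used. At least 1 match was found in 32.7% of the 32851 windows of the RefSeq promoter table, which can hold several starts of a gene. At least 3 were found in 8.47% of these windows, at least 4 in 4.09% and at least 5 in 1.93%. The Gas6 window held 10 CpG dinucleotides and the Pros1 window 15, and the median over all windows was 6. Neither window held TATAAA or CCAAT on either strand, which 12.4% and 33.8% of all windows did. These matches describe letters in the windows only.

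The targeted genes were read first, with an adjusted p under 0.05 in the limma fit over all genes as the threshold for a call. Hdac1 had log2 levels of 11.20, 11.23 and 11.23 in DKO 1, 2 and 3, against 11.48, 11.49 and 11.52 in control 1, 2 and 3, and fell by 0.28 (limma adjusted p = 0.0193), a call that was lost in 5 of the 6 fits that left out 1 array. Hdac2 lay at 11.74 ± 0.03 in DKO and 11.78 ± 0.08 in control (SD, n = 3 each), a difference of -0.04 with overlapping values. Whether either probe set covers the deleted exons is not known here, so these values do not settle the degree of deletion. For gene and marker lists, fell and rose stand for calls. Of 10 markers of the epithelium, where Shhcre acts, 8 fell and 0 rose in DKO, against 1.38% and 1.03% of all genes. All 10 lay below 0. The count of 8 was 7 without DKO 1 or control 1 and 6 without control 2 or control 3. Their mean log2 level ran from 9.28 to 9.44 in DKO and from 9.87 to 9.98 in control. Array medians lay between 7.87 and 7.89, so a change in total RNA common to all genes would not be visible.

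Gas6 was 2.11-fold higher in the DKO lung buds, its receptors Tyro3 and Mertk were slightly lower, and Pros1 and Axl were slightly higher. In 0 of the 5 did the DKO and control values overlap, and the gap between the groups exceeded the range within either group for Gas6, Pros1 and Axl but not for Tyro3 and Mertk. The groups did not overlap for 18.8% of all genes, with DKO above control for 8.36% and below for 10.4%. Since Gas6 was picked on this contrast, nothing is read from that count. The median difference over all genes was 0.00 on the log2 scale.

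**Figure D1:**
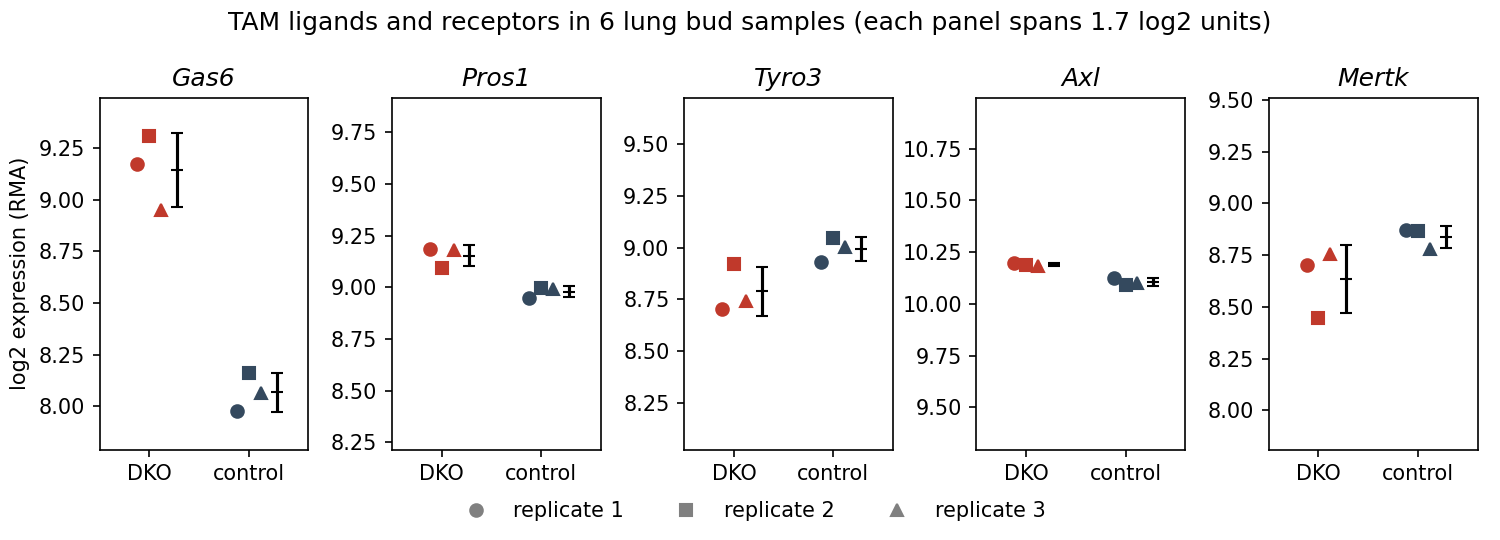
Log2 expression (vertical axis, each panel spanning the same range) of the 5 genes in 3 DKO samples (left in each panel) and 3 control samples (right). Symbols mark the replicate number, and bars give the mean and SD of 3 arrays. Gas6 lies between 8.95 and 9.31 in DKO and between 7.98 and 8.16 in control, while the other 4 genes differ by at most 0.20 between the group means.

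Of the ligands, Gas6 had log2 levels of 9.17, 9.31 and 8.95 in DKO 1, 2 and 3, against 7.98, 8.16 and 8.07 in control 1, 2 and 3. The lowest DKO value exceeded the highest control value by 0.79. The means were 9.14 ± 0.18 in DKO and 8.07 ± 0.09 in control (SD, n = 3 each), a log2 difference of 1.08 (SE 0.09, 95% interval 0.87 to 1.28), or 2.11-fold higher in DKO. By size it ranked 4 among the positive differences of all 19938 genes, and 14 when the sign was ignored. DKO 2 was the highest and DKO 3 the lowest of the DKO samples, and leaving out any single array kept the difference between 0.99 and 1.17.

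Pros1, the paralogue, had log2 levels of 9.18, 9.09 and 9.18 in DKO 1, 2 and 3, against 8.95, 8.998 and 8.99 in control 1, 2 and 3. The groups were separate by a gap of 0.095. The means were 9.15 ± 0.05 in DKO and 8.98 ± 0.03 in control (SD, n = 3 each), a log2 difference of 0.17 (SE 0.05, 95% interval 0.06 to 0.29), or 1.13-fold higher in DKO. The interval, like those of the other members, is not adjusted for the number of genes. In DKO 2, where Gas6 was highest, Pros1 was lowest among the DKO samples.

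Of the receptors, Tyro3, which in the adult is prominent in the nervous system, had log2 levels of 8.70, 8.92 and 8.74 in DKO 1, 2 and 3, against 8.93, 9.05 and 9.001 in control 1, 2 and 3. DKO 2 came within 0.0085 of the lowest control sample, so the groups only just failed to overlap. The means were 8.79 ± 0.12 in DKO and 8.99 ± 0.06 in control (SD, n = 3 each), a log2 difference of -0.20 (SE 0.07, 95% interval -0.36 to -0.05), or 1.15-fold lower in DKO. Without DKO 2 the difference was -0.27. Tyro3 values in the whole bud do not tell fewer expressing cells from less RNA per cell, and the same holds for every gene below.

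Mertk, the main phagocytic TAM receptor of macrophages, had log2 levels of 8.70, 8.45 and 8.75 in DKO 1, 2 and 3, against 8.87, 8.86 and 8.78 in control 1, 2 and 3. DKO 3 lay only 0.025 below control 3, and DKO 2 lay well below all the others. The means were 8.63 ± 0.16 in DKO and 8.84 ± 0.05 in control (SD, n = 3 each), a log2 difference of -0.20 (SE 0.08, 95% interval -0.39 to -0.02), or 1.15-fold lower in DKO. Without DKO 2, the difference was -0.11. Macrophage markers lay on the same side, since 9 of the 10 measured were below 0, with a median difference of -0.10. Limma called 0 of the 10, and 4 had an unadjusted p under 0.05, against 12.8% of all genes. Their mean log2 level was 8.22, 8.10 and 8.15 in DKO 1, 2 and 3, against 8.28, 8.28 and 8.26 in control 1, 2 and 3, so DKO 2 was the lowest sample for both. The part of macrophage RNA in the Mertk difference was not tested.

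Axl, the receptor with the highest affinity for Gas6 and a gene of mesenchymal and vascular cells, had log2 levels of 10.20, 10.19 and 10.18 in DKO 1, 2 and 3, against 10.13, 10.09 and 10.10 in control 1, 2 and 3. The samples of each group lay almost on top of each other. The means were 10.19 ± 0.0082 in DKO and 10.11 ± 0.018 in control (SD, n = 3 each), a log2 difference of 0.08 (SE 0.05, 95% interval -0.02 to 0.19), or 1.06-fold higher in DKO. Of all genes, 0.868% had a smaller SD than Axl among the DKO samples, whereas 91.2% had a smaller one than Gas6 and 87.8% a smaller one than Mertk. The SE of Axl is wider than its own scatter would give, because limma draws the variance of each gene towards that of all genes.

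**Figure D2:**
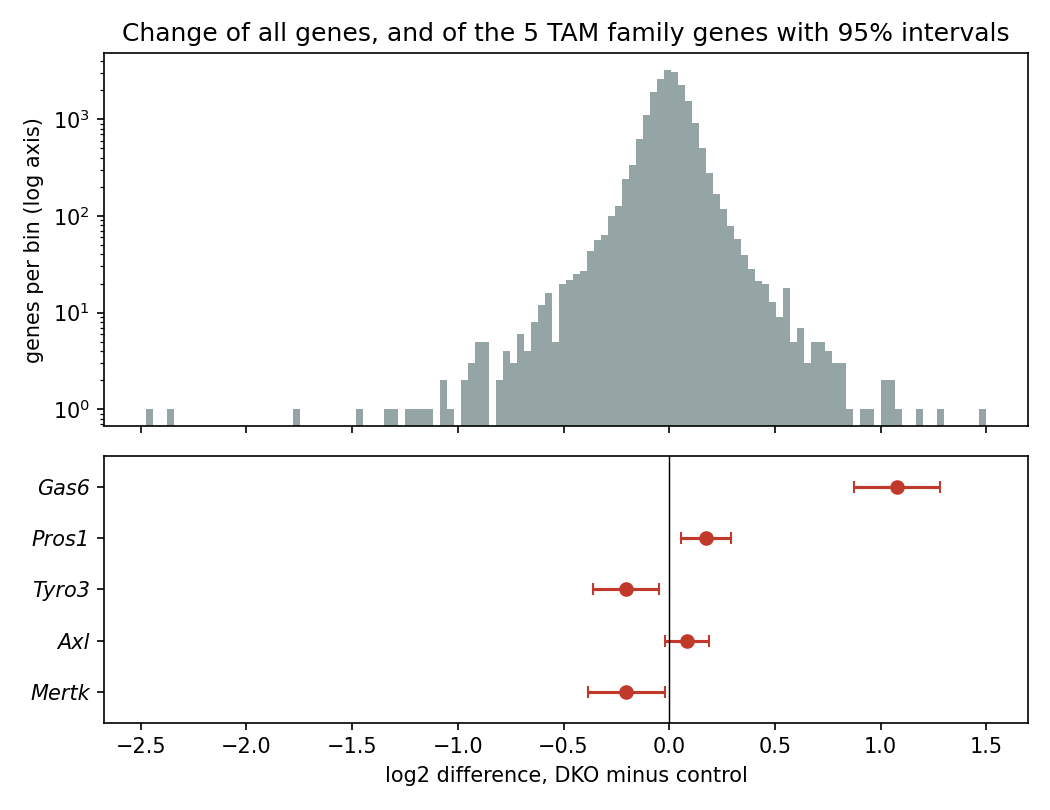
The upper panel shows the log2 difference, DKO minus control (horizontal axis), of all 19938 genes as a histogram on a log vertical axis. The lower panel shows the 5 members on the same axis, with points for the estimate and bars for the 95% interval of the limma fit. Gas6 lies in the far right tail at 1.08, and the other 4 lie between -0.20 and 0.17.

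Marker lists of the cell types that could supply Gas6 or its receptors and of their neighbours were also read. Their median differences lay between -0.44 and 0.21, apart from -0.56 for the epithelium. The single marker Rgs5 differed nearly as widely as Gas6. None of 10 endothelial markers was called by limma, and 2 had an unadjusted p under 0.05, against 12.8% of all genes. Of the 10, 9 lay above 0, and the median difference was 0.13. Their mean log2 level ran from 9.674 to 9.84 in DKO and from 9.62 to 9.670 in control, without overlap. Of 10 mesenchymal markers 0 were called, against 1 with an unadjusted p under 0.05, with a median of -0.05 and mean levels of 10.52 to 10.67 in DKO and 10.61 to 10.67 in control. Of 6 pericyte markers 1 fell, Rgs5, at -1.05 (SE 0.14, limma adjusted p = 0.00598), and the median was 0.07. Mean levels were 8.89 to 8.97 in DKO and 9.02 to 9.08 in control. The other 5 pericyte markers lay above 0 and were not called, so the lower mean in DKO came from Rgs5. Smooth muscle markers fell in 6 of 7 cases and rose in 1, their median was -0.44 and their mean levels were 9.34 to 9.59 in DKO and 9.78 to 9.91 in control. The count of 6 falls became 3 without DKO 3, 2 without control 1 and 0 without control 2 or control 3. Of 6 mesothelial markers 2 rose, with a median of 0.17 and mean levels of 9.09 to 9.14 in DKO and 8.89 to 8.91 in control, and the count was 1 without DKO 3 or any 1 control and 3 without DKO 2. Liver markers were included because hepatocytes secrete protein S. Among 8 of them 1 rose, Alb, at 0.96 (limma adjusted p = 0.0294), a call lost without DKO 1 or any 1 control (adjusted p up to 0.136). All 8 liver markers lay above 0, with a median of 0.12. Their mean levels were 7.041 to 7.37 in DKO and 6.86 to 7.037 in control, without overlap. Of 8 cardiac muscle markers 1 rose, Myl7, at 0.80 (limma adjusted p = 0.00163), and 3 rose without DKO 2. All 8 lay above 0, 5 had an unadjusted p under 0.05, the median was 0.21, and mean levels were 8.43 to 8.62 in DKO and 8.18 to 8.27 in control. The 7 erythroid and 4 neural crest markers had medians of 0.12 and -0.15, with 0 called in either list (2 in each had an unadjusted p under 0.05). The part of these cell types in the Gas6 and Pros1 differences was not tested.

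The genes around the TAM system, listed by role, were tested in the limma fit over all genes, with Benjamini-Hochberg adjustment and a threshold of 0.05. Of 75 measured genes 1 fell and 0 rose, a share near the background, since 2.41% of all genes were called, 1.03% higher and 1.38% lower in DKO. The count of 1 was 0 in 5 of the 6 fits that left out 1 array and 9 with array weights. Their median difference was 0.01 (0.00 over all genes), and 44 of the 75 differences were above 0. An unadjusted limma p under 0.05 was found for 16 of the 75, a larger share than the 12.8% of all genes. The gap between these shares was not tested. A further 5 entries of the lists were not analysed here.

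Vitamin K dependent carboxylation makes Gas6 and protein S able to bind membranes. Of 7 genes of carboxylation and ligand maturation limma called 0, and 1 had an unadjusted p under 0.05. That gene was Vkorc1, the vitamin K epoxide reductase that regenerates the cofactor, with log2 levels of 10.28, 10.16 and 10.11 in DKO 1, 2 and 3, against 9.96, 9.94 and 9.92 in control 1, 2 and 3. The groups were separate, and the difference was 0.24 (SE 0.06, adjusted p = 0.0751). It passed with an intensity trend (adjusted p = 0.0220), with array weights (0.0266) and without the dimmest 30% or 50% of genes (0.0440 and 0.0268). Its paralogue Vkorc1l1 stood at 0.13 (adjusted p = 0.566), with overlapping values.

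Of 11 other Gla-domain genes measured, limma called 0, and 2 had an unadjusted p under 0.05. Mgp, the matrix Gla protein that inhibits calcification, had log2 levels of 10.59, 9.87 and 9.96 in DKO 1, 2 and 3, against 9.68, 9.78 and 9.63 in control 1, 2 and 3. Its difference of 0.44 (SE 0.16, adjusted p = 0.268) did not pass. DKO 1 stood far above the remaining DKO samples, and without it the difference was 0.22. Prrg4, a transmembrane Gla protein named for its size of difference, was not 1 of those 2. It stood at 0.18 (limma unadjusted p = 0.0860, adjusted p = 0.491), with overlapping values. It ran from 0.099 without DKO 3 to 0.27 without DKO 2, and passed with array weights (0.29, adjusted p = 0.0209). Among 5 further TAM ligands and receptor sheddases 0 were called and 1 had an unadjusted p under 0.05. Adam17, a protease that sheds Mertk, stood at 0.15 (adjusted p = 0.352), and Tub, a ligand of Mertk, at -0.09 (adjusted p = 0.551).

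Of 16 adaptors and effectors downstream of the kinases, limma called 0, 3 had an unadjusted p under 0.05, and 12 lay below 0, with a median of -0.06. The adaptor Nck2 had log2 levels of 9.18, 9.10 and 9.30 in DKO 1, 2 and 3, against 9.36, 9.49 and 9.36 in control 1, 2 and 3. Its groups were separate, at a difference of -0.21 (SE 0.07, adjusted p = 0.192). Vav1, an exchange factor of blood cells that acts below Mertk, stood at -0.17 (SE 0.05, adjusted p = 0.203). The macrophage markers had a median of -0.10, and their part in the Vav1 value was not tested.

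The 1 gene that passed was Twist2, from the list for the interferon feedback arm, in which TAM receptors act through the interferon receptor on Socs and Twist genes. Twist2 had log2 levels of 9.57, 9.65 and 9.73 in DKO 1, 2 and 3, against 9.96, 9.92 and 9.90 in control 1, 2 and 3. It fell by 0.28 (SE 0.06, limma adjusted p = 0.0395), and it is also a transcription factor of embryonic mesenchyme. The call was lost in 5 of the 6 fits that left out 1 array, all but the one without DKO 2 (adjusted p from 0.0367 to 0.186 over the 6), and with the replicate number as a block (adjusted p = 0.0869). The other 9 measured genes of this list did not pass, and 7 of all 10 lay above 0.

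Other genes for the clearance of apoptotic cells were measured because Gas6 bridges dying cells to phagocytes. Of 20, limma called 0, and 4 had an unadjusted p under 0.05, with a median of 0.02. The integrin subunit gene Itgb3 had log2 levels of 8.70, 8.86 and 8.71 in DKO 1, 2 and 3, against 8.42, 8.53 and 8.52 in control 1, 2 and 3. Its groups were separate at 0.26 (SE 0.06, adjusted p = 0.0709), and it passed under the same 4 alternatives as Vkorc1 (adjusted p from 0.0118 to 0.0443). Gulp1, an engulfment adaptor named for its size of difference, was not 1 of those 4. It stood at -0.26 (limma unadjusted p = 0.0555, adjusted p = 0.408). DKO 2 lay at 9.29 and the remaining DKO samples at 9.75 and 9.77, and the difference was -0.10 without DKO 2. Among 6 other receptor kinases, limma called 0 and 2 had an unadjusted p under 0.05. Met, the hepatocyte growth factor receptor, stood at -0.16 (adjusted p = 0.352), and Igf1r, an insulin-like growth factor receptor, at 0.14 (adjusted p = 0.272).

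**Figure D3:**
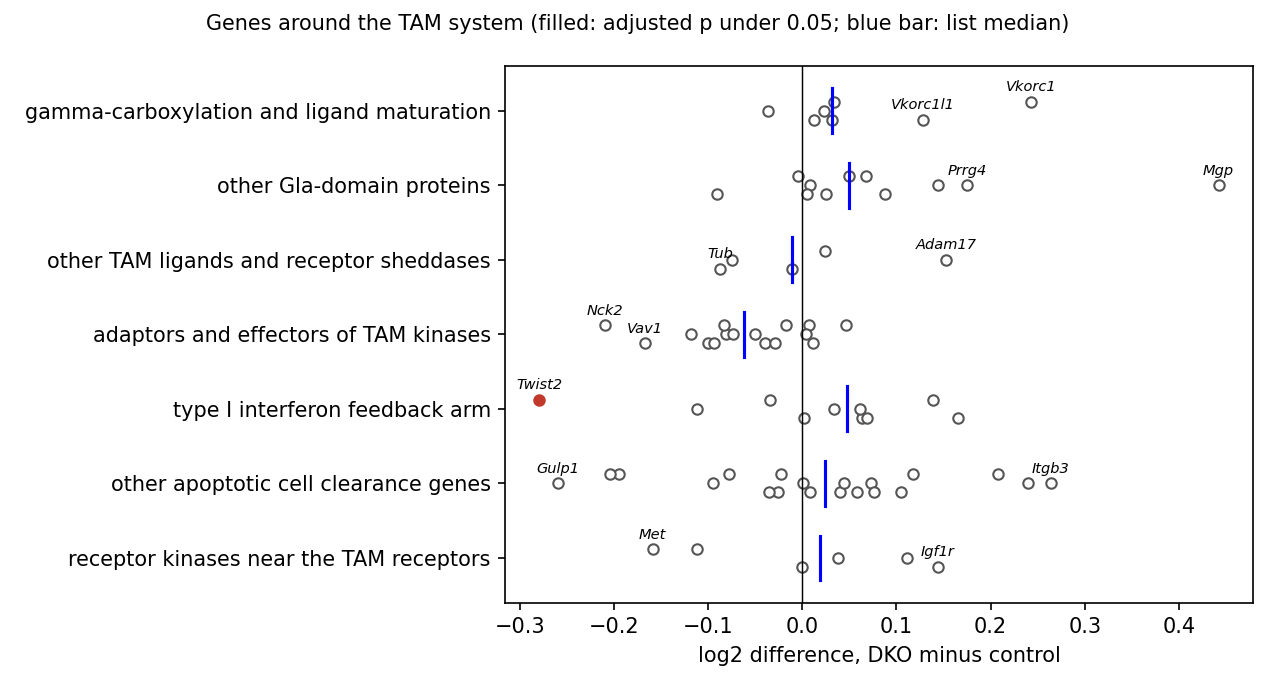
Log2 difference, DKO minus control (horizontal axis), of the 75 measured genes around the TAM system, 1 row per list. Circles are genes, filled where the adjusted p was under 0.05, blue bars are list medians and the named genes are labelled. Only Twist2 at -0.28 is filled, and the point farthest from 0 is Mgp at 0.44, which is 0.22 without DKO 1.

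The 6 genes whose profile over the 6 arrays lay closest to that of Gas6 were Nup62cl, Cxcl15, Dram1, Fgf10, Calcrl and Reg4. Likeness was the root mean square distance between log2 profiles after the mean of each gene was subtracted, so it takes in the size of the difference as well as the order of the samples. The distances were 0.10 for Nup62cl, a nucleoporin-like gene, 0.12 for the lung chemokine gene Cxcl15, 0.12 for Dram1, a lysosomal gene of autophagy, 0.14 for the mesenchymal growth factor gene Fgf10, 0.14 for Calcrl, a receptor of adrenomedullin, and 0.15 for the lectin gene Reg4. Their log2 differences were 1.06, 1.19, 0.85, 1.05, 0.92 and 0.79 in that order, against 1.08 for Gas6, and their choice by likeness fixes that they are high in DKO. They were not alike within the DKO group. Fgf10 was highest in DKO 1 at 10.44 and lower in DKO 2 and DKO 3, at 10.11 and 9.91, whereas Gas6, Nup62cl, Dram1 and Reg4 were highest in DKO 2.

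**Figure D4:**
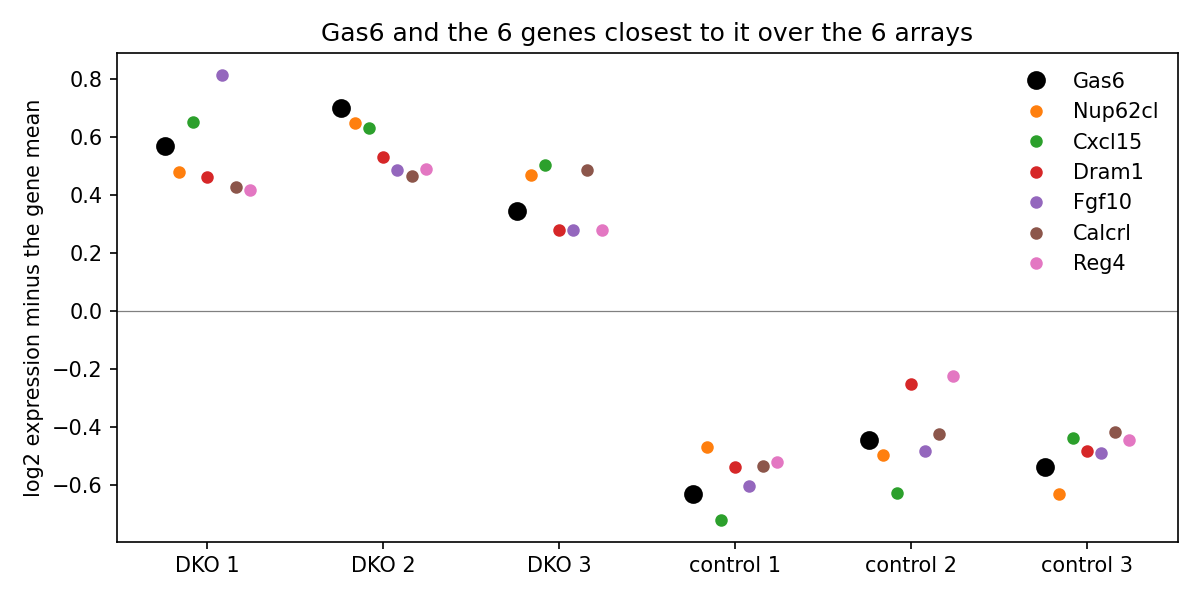
Log2 expression minus the gene's mean over the 6 arrays (vertical axis) for Gas6 (large black points) and the 6 genes closest to it, in 3 DKO and 3 control samples. All 7 lie above 0 in every DKO sample and below 0 in every control sample, which the choice by likeness fixes.

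The measured neighbours of Gas6 on the chromosome did not share its difference in size. Tmem255b, which RefSeq places on the opposite strand and overlapping Gas6, had log2 levels of 7.47, 7.70 and 7.49 in DKO 1, 2 and 3, against 7.52, 7.54 and 7.50 in control 1, 2 and 3. Its groups overlapped, with a difference of 0.03 (SE 0.07, 95% interval -0.12 to 0.19, limma adjusted p = 0.912). On that side followed Grk1, a photoreceptor kinase gene, at -0.04 (adjusted p = 0.923) and Atp4b, a gastric proton pump subunit gene, at 0.07 (adjusted p = 0.863). On the other side lay 1700029H14Rik at 0.02 (adjusted p = 0.959), Rasa3, a Ras GTPase activating gene, at 0.11 (adjusted p = 0.482) and Cdc16, a subunit gene of the anaphase-promoting complex, at 0.00 (adjusted p = 0.994). The highest upper bound among the 95% intervals of these 6 genes was 0.30, and the lower bound for Gas6 was 0.87. Gas6 was picked for its large difference in this contrast and the neighbours were not, so nothing is read from that gap.

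**Figure D5:**
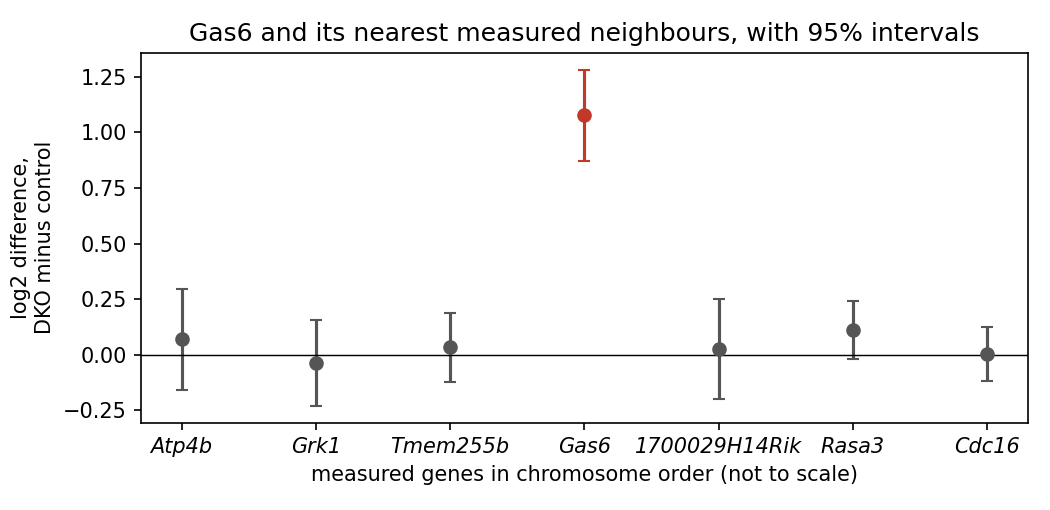
Log2 difference, DKO minus control (vertical axis), of Gas6 and the 3 nearest measured genes on each side, in RefSeq order and not to scale. Points are estimates and bars are 95% intervals from limma on 3 DKO and 3 control arrays. Gas6 stands at 1.08 and the 6 neighbours lie between -0.04 and 0.11.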

How the data were processed

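Expression was measured in 6 lung bud samples, 3 DKO and 3 control, grouped by their titles. The deposited table holds 1 log2 value for each of 35556 probe sets and array, from 3.42 to 14.27. Per the submitters' processing notes the tools were oligo, RMA and limma, without versions, and the log base was taken from RMA and from this range. RMA makes the distributions of the arrays alike. Whether a probe set exceeds background is not known here.

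Probe sets with exactly 1 symbol in the platform annotation (21789) were kept, the brightest per gene by mean over all arrays, which gave 19938 genes, 19856 of them matched to RefSeq (GRCm38.p6) by Entrez identifier. A genome build for the probe sets is not given in the sources used here. Groups were compared over all genes by limma (version 3.58.1, R 4.3.3) with lmFit and eBayes, two-sided, with no further term and with Benjamini-Hochberg adjustment. The same fit was run on data simulated for this comparison (5 runs, 200 of 19938 genes changed in each). There it recovered 45.2% of genes changed 1.25-fold, 85.6% at 1.5-fold and 98.0% at 2-fold, and 3.07% of calls were false. These rates describe the simulated data only and are not error rates of the calls reported here. On the real arrays the SD around the group mean was 0.071 to 0.105 in DKO and 0.060 to 0.064 in control. The count of genes called on them ran from 16 to 2003 over the alternative fits.

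The members and lists were chosen with earlier results of these data known. Named were the members, Hdac1 and Hdac2, per list up to 4 called genes or else the 2 with the largest difference, the 6 genes nearest to Gas6 (leaving out 1316 predicted, clone or accession names), 3 neighbours on each side, and the leading marker of a list where it bears on a result. Precision is limited by the number of arrays. Nothing in the labels says that equal numbers mark a shared litter or day, so the numbers were not used as pairs. Deviations of same-numbered samples from their group means had correlations of -0.06, 0.05 and 0.16, which cannot settle whether they were paired.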

Additional observations from a re-analysis of the deposited data

How the results depend on the processing

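The differences of the 5 members kept their sign under all 17 alternatives and moved by less than 1 SD pooled within the groups (0.14 for Gas6, 0.041 for Pros1, 0.093 for Tyro3, 0.014 for Axl and 0.12 for Mertk), with Gas6 between 0.93 and 1.17, Pros1 between 0.16 and 0.20, Tyro3 between -0.27 and -0.16, Axl between 0.08 and 0.09 and Mertk between -0.26 and -0.11. Many of these alternatives could not move a difference. They were the replicate block, intensity trend, robust fit, mean of probes, all probe sets, both dim filters and ordinary least squares. The mean of probes could not, because each member has 1 probe set. The rest leave the estimate as it is and change only its variance or the set of genes tested. Only array weights, a second quantile normalization, median centring and leaving out 1 array could move it. Leaving out 1 array could not move a difference by 1 SD, because the groups hold too few arrays. Neither leaving out nor weighting arrays could turn a sign, because the DKO and control values did not overlap for any member. The sign was therefore open only to the second normalization and median centring, and the 1 SD limit only to these and array weights. Leaving out 1 array gave 0.99 to 1.17 for Gas6, 0.16 to 0.20 for Pros1, -0.27 to -0.16 for Tyro3, 0.08 to 0.09 for Axl and -0.26 to -0.11 for Mertk.

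The count of genes called, 481, became 725 with an intensity trend, 2003 with array weights, 208 over all probe sets, 16 with ordinary least squares and 197 to 811 when 1 array was left out (197 without control 2, 215 without control 1 or control 3, 317 without DKO 3 and 811 without DKO 2). The replicate block gave 406 genes and 0 of the 75 pathway genes, and it is not a paired analysis by design. The count of 1 among the pathway genes became 3 with an intensity trend, 9 with array weights (6 higher and 3 lower in DKO), 3 and 4 without the dimmest 30% and 50% of genes, and 0 over all probe sets and with ordinary least squares. It was 0 to 1 when 1 array was left out. Over all 38 other named genes, 570 of 628 alternative fits stayed on the same side of the threshold, 38 lost a call and 20 gained one. No called difference changed its sign, but 10 of the 570 fits turned the sign of an uncalled one, all in 5 neighbours of Gas6 (1700029H14Rik, Atp4b, Cdc16, Grk1 and Tmem255b). In the fit over all genes these 5 differences lay between -0.04 and 0.07, and each was smaller than its own SE. Why their signs turned was not tested.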
